A study of Mus musculus with 12 samples.

Results

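Oligodendrocytes are the glial cells that wrap axons of the central nervous system in myelin. This account follows 30 genes of their lineage in the mouse hippocampus, taken by symbol from a list of genes known for the lineage, out of 78298 genes listed. They comprise 19 genes of mature, myelinating cells, 4 transcription factors of the whole lineage, and 7 genes of precursors or of cells that are just starting to differentiate. All 30 passed the filter on low counts and were among the 18600 genes tested. The hippocampus of male C57BL/6 mice, 6 to 8 weeks old when bought, was sequenced as poly(A) RNA in 12 libraries of 3 groups with 4 libraries each. Treatment mice were exposed for 28 days to chronic unpredictable mild stress, in which mild stressors follow each other in changing order as a model of depression. From day 15 they were gavaged once daily for 14 days with 20 mg/kg of poricoic acid A, which is a fungal triterpenoid found in Poria cocos. Model mice were exposed to the same 28 days of stress and received saline. Control mice received saline without stress. Mice of all 3 groups had been picked for a sucrose preference above a set level before the experiment, and the labels leave it unsaid whether each library came from an animal of its own, so p-values here measure only how far these samples spread.

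Precursor cells carry the growth factor receptor Pdgfra and the proteoglycan Cspg4, divide throughout life and, on leaving the cell cycle, pass through a short stage marked by Gpr17, Bcas1 and Enpp6. Sox10, Olig1 and Olig2 are active along the whole lineage, whereas Myrf switches on the myelin genes in cells that mature. Mature cells then make the proteins of compact myelin such as Mbp, adhesion proteins such as Mag and Mog, and galactolipids through Ugt8a, Fa2h and Gal3st1. Several of the genes are not private to the lineage: choroid plexus also makes Trf, pericytes also make Cspg4, fibroblasts also make Pdgfra and Apod, and neurons and astrocytes also make Cspg5.

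Upstream sequences were looked up because Myrf, Sox10 and Olig2 are DNA-binding factors that are themselves among the 30. The RefSeq table of promoters (build GRCm38.p6) held 29 windows for 21 of the 30 genes, with Cspg5 and Olig1 among the 9 others. The 4 genes shown were chosen, with their values known, to cover the stages of the lineage: Opalin passed in a comparison below, whereas Mag, Pdgfra and Olig2 did not pass in edgeR with the filter on low counts. The 250 bases before 4 annotated starts are printed 5′ to 3′ on the strand of the gene. They belong to Opalin and Mag of mature cells (chr19:41077114-41077363 and chr7:30914864-30915113, both on the minus strand) and to Pdgfra of precursors and Olig2 of the whole lineage (chr5:75152001-75152250 and chr16:91225300-91225549, both on the plus strand). Capitals mark matches, on either strand, to CTGGNAC (the Myrf motif), ACAAAG or ACAATG (Sox motifs) or CAGNTG (the E-box bound by Olig2 and its relatives).
Opalin: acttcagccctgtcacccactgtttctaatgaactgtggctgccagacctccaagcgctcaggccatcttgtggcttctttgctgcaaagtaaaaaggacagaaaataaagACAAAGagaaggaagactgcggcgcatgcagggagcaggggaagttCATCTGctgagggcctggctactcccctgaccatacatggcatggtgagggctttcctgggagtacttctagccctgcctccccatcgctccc
Mag: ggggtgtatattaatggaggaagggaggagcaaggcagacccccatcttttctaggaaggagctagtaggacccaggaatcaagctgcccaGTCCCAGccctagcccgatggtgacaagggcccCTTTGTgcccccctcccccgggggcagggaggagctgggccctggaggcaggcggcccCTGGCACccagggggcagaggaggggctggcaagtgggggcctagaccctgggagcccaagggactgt
Pdgfra: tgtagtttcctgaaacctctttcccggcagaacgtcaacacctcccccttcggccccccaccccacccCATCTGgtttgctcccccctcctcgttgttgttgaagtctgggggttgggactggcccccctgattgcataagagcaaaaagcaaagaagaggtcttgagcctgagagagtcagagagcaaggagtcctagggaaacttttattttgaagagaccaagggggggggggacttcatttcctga
Olig2: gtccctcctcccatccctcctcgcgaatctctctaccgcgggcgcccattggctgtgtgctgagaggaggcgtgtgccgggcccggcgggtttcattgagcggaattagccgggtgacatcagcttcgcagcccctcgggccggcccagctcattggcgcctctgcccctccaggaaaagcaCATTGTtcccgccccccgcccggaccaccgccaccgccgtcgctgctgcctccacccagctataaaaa
The Mag window held 2 matches to the Myrf motif and 1 to the first Sox motif, and the Opalin window 1 Sox match and 1 E-box. The window printed for Mag is 1 of 3. The second (chr7:30914923-30915172) overlaps it and had the same counts of matches, and the third (chr7:30914322-30914571) had 0 Myrf, 0 Sox and 1 E-box match. Pdgfra had 1 E-box and Olig2 1 match to the second Sox motif, and within these 4 windows 0 bases were shared by 2 matches. CTGGNAC occurred in 9 of the 29 windows (7 of 21 genes) and in 16.1% of all 32851 windows of this length. ACAAAG occurred in 9 windows and in 16.5% of all, ACAATG in 6 and in 10.7%, and CAGNTG in 13 and in 44.8%. These are matches of letters and were not read as binding sites.

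The 30 genes differed widely in level. Per length, as deposited FPKM (fragments scaled by gene length and library total), the highest was Mbp, myelin basic protein, which had 1893 to 2498 in Treatment libraries, 1961 to 2287 in Model libraries and 2030 to 2468 in Control libraries. Mobp, another basic protein of compact myelin, came second with 436 to 608 FPKM in Treatment, 510 to 540 in Model and 490 to 604 in Control libraries. Of the genes of the precursor group, Cspg5 was the highest with 97.6 to 139 FPKM over the 12 libraries, at about the level of Cldn11 and Mal, and Bcas1 followed with 78.6 to 96.7. At the low end, Cspg4, Nkx2-2 and Enpp6 lay between 2.38 and 4.63 FPKM, and their ranges overlapped one another. Among the 4 lineage factors, Olig1 stood at 59.0 to 87.0 FPKM, above Sox10 at 21.0 to 27.5, Olig2 at 13.6 to 21.4 and Sox8 at 14.0 to 19.5, whose ranges overlapped from each to the next.

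**Figure D1:**
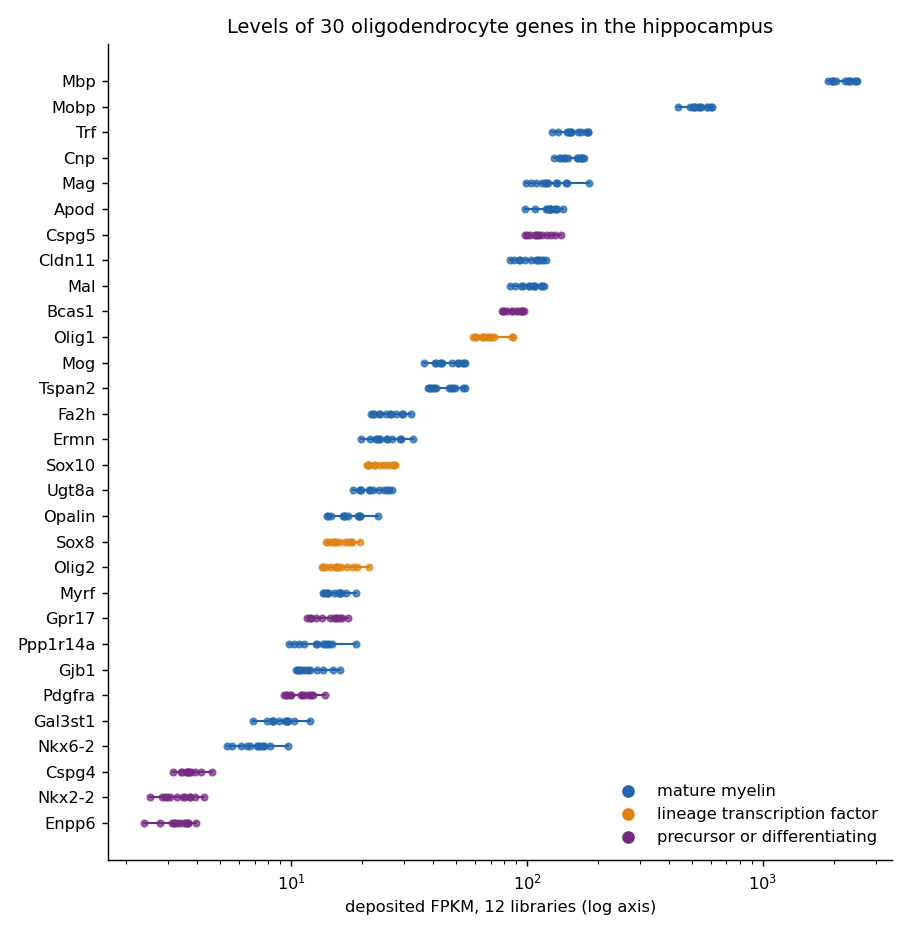
Deposited FPKM of the 30 genes in each of the 12 libraries on a log axis, ordered by mean, with a line over the range and colours for mature myelin genes, lineage transcription factors and precursor or differentiating genes. Mbp lies highest and Enpp6, Nkx2-2 and Cspg4 lowest, and Cspg5 and Bcas1 of the precursor group stand among the myelin genes.

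The totals of estimated counts per library ranged from 17083260 to 27479083. The libraries differed in their content of adjoining tissue. The mean level of 22 choroid plexus markers, on a log2 scale around each gene's mean over 12 libraries, was 0.77, 1.097 and 1.19 in Control replicates 1, 2 and 3 but -0.26 in Control replicate 4, -0.61 to -0.04 in Model libraries and -0.84 to 0.43 in Treatment libraries. The same score for 10 markers of neocortex was 0.48, 0.27, -0.0002 and 0.54 in Treatment replicates 1 to 4, against -0.49 to -0.03 in Model and -0.38 to 0.06 in Control libraries. Of 10 thalamus and habenula markers, 9 had negative log2 fold changes in Model against Control and 0 passed (median -0.53), with scores of -0.42, 0.58, -0.44 and -0.54 in Model replicates 1 to 4, against 1.53, -0.28, -0.02 and -0.44 in Control replicates 1 to 4. The score of 10 ependyma markers was -0.90 to 0.14 in Treatment, -0.24 to 0.37 in Model and 0.03 to 0.49 in Control libraries, and 9 of the 10 were negative in Model against Control with 0 that passed (median -0.38). Of 10 Schwann cell markers, which mark peripheral myelin, 5 were tested and 0 passed in any of the 3 comparisons. The 10 summed to 50.4 to 62.8 CPM in Treatment, 47.7 to 60.0 CPM in Model and 54.6 to 58.9 CPM in Control libraries. Among them Pmp2 reached at most 0.129 CPM, Ncmap 0.534 CPM and Prx 2.67 CPM, so the sums came mostly from other genes of the list. CPM here are counts scaled to a common library size by TMM.

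The comparison of Model with Control asked what the stress schedule does to the hippocampus. Of the 30 genes 0 rose, 1 fell and 29 did not pass an adjusted p of 0.05 in edgeR, where 0.79% of all 18600 genes tested passed in either direction. The gene that fell was Opalin, a glycoprotein of the oligodendrocyte membrane. The mature genes had negative log2 fold changes in 16 of 19 and a median of -0.14, beside 52.7% negative and a median of -0.01 over all genes tested. The precursor group had 4 positive and 3 negative values and a median of 0.01. Microglia markers had negative values in 9 of 10 (median -0.13), and pericyte and smooth muscle markers in 9 of 10 (median -0.10). Astrocyte markers had 8 of 10 negative (median -0.08), and 0 markers of these lists passed. Endothelial markers had 4 of 10 negative (median 0.05, 1 fell) and dentate granule markers 1 of 10 (median 0.13, 1 rose). The part of these cells in the result was not tested. In bulk tissue, fewer cells of a type and less RNA per cell cannot be told apart.

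Opalin (chr19:41050149-41056562, GRCm39) had 24.0, 25.2, 24.5 and 28.1 CPM in the Model libraries, against 32.8, 32.2, 38.8 and 32.9 CPM in the Control libraries. All 4 Model libraries lay below all 4 Control libraries. The log2 fold change was -0.42 ± 0.08 (SE, n = 4 per group) with an adjusted p of 0.0212 in edgeR. The call was close to the threshold: it was lost without Control replicate 1, 2 or 3 (adjusted p 0.0729, 0.0663 and 0.0519) and without Model replicate 2 or 3 (0.0719 and 0.083), while the log2 fold change stayed between -0.47 and -0.35 over all 25 alternatives. In limma fits of the deposited FPKM values 0 of the 30 genes passed in any of the 3 comparisons, with an adjusted p of 0.0719 to 0.159 for Opalin in this one. Choroid plexus markers moved with this difference: 22 of 22 had negative log2 fold changes, 2 fell, 0 of them were at 0 throughout, and their summed level was 678 to 974 CPM in Model against 810 to 2615 CPM in Control libraries. With that marker score entered as a covariate, Opalin had a log2 fold change of -0.36 and an adjusted p of 0.288. Control replicate 4 had a choroid plexus score within the Model range and 32.9 CPM of Opalin. That is a single library, and beyond the covariate fit the part of choroid plexus content was not tested. Pan-neuronal markers had positive values in 10 of 10 (median 0.10, 0 passed) and summed to 6837 to 7175 CPM in Model against 6195 to 6430 CPM in Control libraries, and their part in the result was not tested.

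Most genes of the myelin group had small negative values that did not pass singly. The group held 14 genes, of myelin and the oligodendrocyte membrane and, with Trf and Apod, of carrier proteins. Of the 14 genes 13 had negative log2 fold changes (median -0.15). The exception was Ermn, a cytoskeletal protein of late oligodendrocytes, at 0.08 ± 0.13. Mbp had 3092, 3165, 3169 and 3578 CPM in Model libraries, against 3863, 3800, 3639 and 3217 CPM in Control libraries. Model replicates 1 to 3 lay below all Control libraries, and the highest Model library exceeded the lowest Control library, so that the groups overlapped (log2 fold change -0.16 ± 0.07, adjusted p = 0.311). Mog, an adhesion protein of the outermost myelin, had 53.1, 62.5, 59.3 and 73.3 CPM in Model libraries and 78.4, 76.0, 77.8 and 62.9 CPM in Control libraries (-0.25 ± 0.09, adjusted p = 0.213). Here too the highest Model and the lowest Control library crossed, and they were the same replicates as for Mbp. Ppp1r14a, an inhibitor of myosin phosphatase that oligodendrocytes and smooth muscle make, had a log2 fold change as large as that of Opalin (-0.42 ± 0.14) but an adjusted p of 0.155. Its libraries spread more, with 6.76, 9.59, 6.15 and 6.82 CPM in Model and 8.79, 9.23, 12.1 and 9.28 CPM in Control libraries.

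The remaining genes of the myelin group encode the adhesion protein Mag, the basic protein Mobp, the phosphodiesterase Cnp and the sorting protein Mal. They also encode the tight junction protein Cldn11, the gap junction protein Gjb1, the tetraspanin Tspan2, the iron carrier Trf and the lipid carrier Apod. The log2 fold changes of all these genes lay between -0.20 (Trf) and -0.07 (Gjb1), with adjusted p of 0.284 or above in edgeR. The galactolipid enzymes Ugt8a, Gal3st1 and Fa2h had 0.05, 0.03 and -0.08, and the maturation factors Myrf and Nkx6-2 -0.02 and -0.14. Of these 14 genes 0 passed. With the choroid plexus score in the model, the log2 fold change of Trf was 0.05 in place of -0.20, and the median of the 19 mature genes was 0.03 in place of -0.14. When single libraries were left out, that median lay between -0.21 (without Model replicate 4) and -0.08 (without Model replicate 3).

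Libraries of a group differed in the level of the mature genes as a whole. The mean level of the 19 mature genes was -0.19, -0.04, -0.20 and 0.08 in Model replicates 1 to 4, against 0.06, 0.10, 0.13 and -0.11 in Control replicates 1 to 4. The groups overlapped through Model replicate 4 and Control replicate 4, the only libraries on the other side of their groups. Control replicate 4 was also the Control library with the low choroid plexus score, with -0.26 against 0.77 to 1.19 in the other 3.

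**Figure D2:**
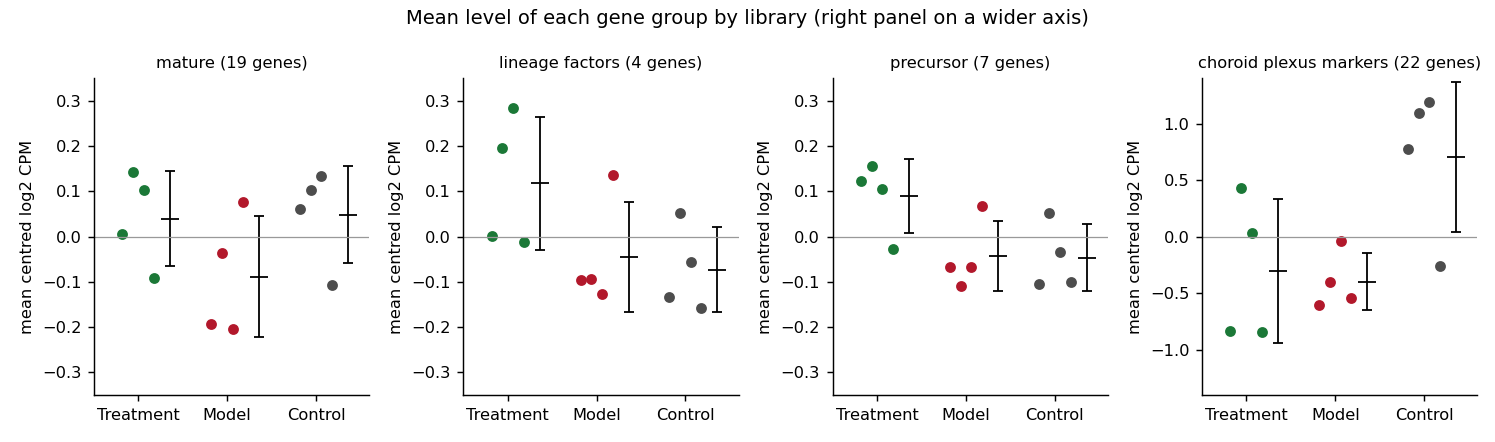
Mean log2 CPM around each gene's 12-library mean, for the mature, lineage factor and precursor genes and, on a wider axis, for choroid plexus markers; points are replicates 1 to 4 from left to right in the Treatment, Model and Control groups, and the bar gives mean ± SD. Mature scores overlap between all groups, and Control replicates 1 to 3 stand above the other 9 libraries in choroid plexus markers.

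Opalin was also lower relative to the single myelin gene Mbp, a ratio formed after the values were seen. Per 1000 CPM of Mbp, Model libraries had 7.75, 7.97, 7.72 and 7.87 CPM of Opalin and Control libraries 8.48, 8.49, 10.7 and 10.2 CPM. The ratio in every Model library was below that in every Control library. It rests on the same Opalin values as the call above, and ratios of Opalin to other myelin genes were not formed.

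In the same comparison, the lineage factors and precursor genes split in direction. Olig2, the factor that specifies the lineage, had 37.0, 36.1, 35.6 and 41.4 CPM in Model libraries, against 30.4, 35.0, 31.9 and 31.0 CPM in Control libraries. The groups did not overlap, and the log2 fold change of 0.23 ± 0.09 did not pass (adjusted p = 0.238). Its neighbour Olig1 had -0.05 ± 0.07, Sox10 -0.01 ± 0.09 and Sox8 -0.05 ± 0.10. Pdgfra had 59.3, 58.2, 59.0 and 57.7 CPM in Model libraries, against 61.7, 78.7, 66.9 and 73.3 CPM in Control libraries. The Model libraries lay within a narrow band below all Control libraries, with a log2 fold change of -0.26 ± 0.08 and an adjusted p of 0.11. DESeq2, unlike edgeR, called Pdgfra lower. Opalin, Olig2 and Pdgfra were the 3 of 30 genes whose groups did not overlap, where 11.4% of all genes tested did not.

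Gpr17, the receptor of committed precursors, had 77.2, 66.7, 76.2 and 86.9 CPM in Model libraries and 58.5, 71.6, 57.5 and 62.9 CPM in Control libraries. Control replicate 2 reached into the Model range, and the log2 fold change of 0.29 ± 0.10 did not pass (adjusted p = 0.159). Without the filter on low counts, edgeR called Gpr17 higher. Bcas1 and Enpp6, the other markers of newly forming oligodendrocytes, had -0.07 ± 0.07 and 0.01 ± 0.13. The precursor proteoglycans Cspg4 and Cspg5 had 0.07 ± 0.09 and -0.10 ± 0.06, and the homeodomain factor Nkx2-2 had 0.08 ± 0.12. The median of the precursor group turned to -0.08 without Model replicate 4.

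**Figure D3:**
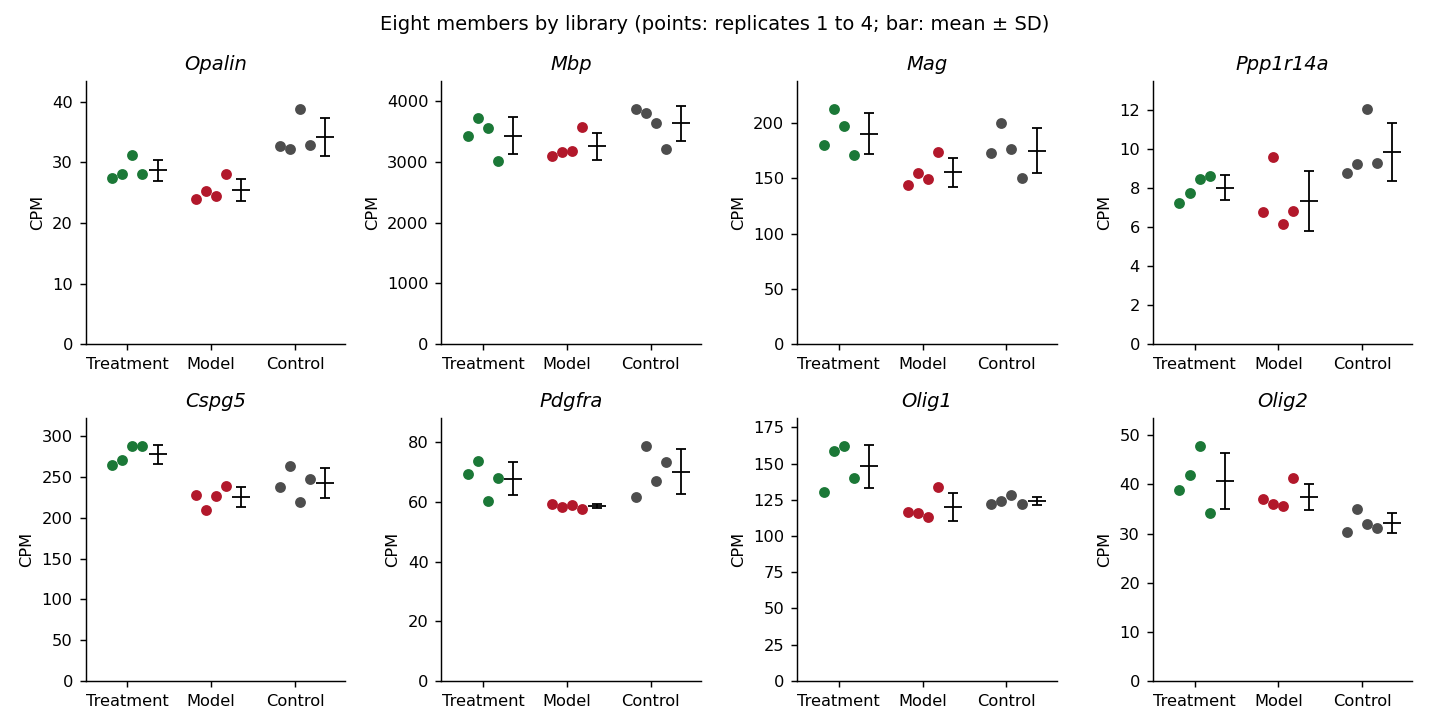
CPM of 8 of the genes in every library, with replicates 1 to 4 from left to right within the Treatment, Model and Control groups and a bar for mean ± SD. Opalin is lower in all 4 Model than in all 4 Control libraries, Cspg5 is higher in all 4 Treatment than in all 4 Model libraries, and the Pdgfra values of the Model libraries lie close together.

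The comparison of Treatment with Model asked what the compound does in mice under stress. Of the 30 genes 2 rose, 0 fell and 28 did not pass, where 1.88% of all genes tested passed in either direction. The genes that rose were Cspg5, a transmembrane chondroitin sulfate proteoglycan, and the basic helix-loop-helix factor Olig1, and both belong to the precursor and lineage groups. Of the 19 mature genes 0 passed in edgeR, though 16 had positive log2 fold changes (median 0.12). An unadjusted p under 0.05 in edgeR was reached by 5 of the 19 and by 3436 of all 18600 genes tested. All 4 lineage factors (median 0.12) and 6 of the 7 precursor genes (median 0.15) had positive values, beside 50.4% positive and a median of 0.00 over all genes tested. A wider list of 30 other precursor and differentiation genes, taken up below, had 17 positive and 13 negative values (median 0.04).

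Cspg5 (chr9:110072851-110091643, GRCm39) had 265, 271, 288 and 288 CPM in Treatment libraries, against 228, 210, 227 and 240 CPM in Model libraries. Every Treatment library exceeded every Model library, and the log2 fold change was 0.30 ± 0.06 (SE, n = 4 per group, adjusted p = 0.0301 in edgeR). The call was lost without Model replicate 1, 2 or 3 (adjusted p 0.0532, 0.124 and 0.102) and without Treatment replicate 2 or 4 (0.0704 and 0.0788). Olig1 (chr16:91066660-91068821, GRCm39) had 131, 159, 162 and 140 CPM in Treatment libraries, against 117, 116, 113 and 134 CPM in Model libraries. Treatment replicate 1 and Model replicate 4 crossed, and the log2 fold change was 0.30 ± 0.07 (adjusted p = 0.0446). The Olig1 call held under fewer settings: it stood in 8 of 25 alternatives, and of the 12 fits that left out a library it stood without Model replicate 4 (adjusted p = 0.0397) and without Treatment replicate 1 (0.0263) but in none of the other 10, where adjusted p lay between 0.0556 and 0.154. Leaving out Treatment replicates 2 and 3, whose library numbers stand apart from those of the other 10 libraries, brought Olig1 to 0.18 with an adjusted p of 0.297 and Cspg5 to 0.29 with an adjusted p of 0.103.

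Markers of other cells differed between the same groups. All 10 neocortex markers had positive log2 fold changes and 2 of them rose, 0 of them were at 0 throughout, and their summed level was 582 to 917 CPM in Treatment against 463 to 635 CPM in Model libraries. With the neocortex score as a covariate, chosen after seeing the data, Cspg5 had a log2 fold change of 0.27 (adjusted p = 0.398) and Olig1 of 0.38 (adjusted p = 0.383). Treatment replicate 3, whose neocortex score was the lowest of its group, had 288 CPM of Cspg5 and 162 CPM of Olig1. Treatment replicate 4, whose score was the highest of its group, had 288 and 140 CPM. Beyond the covariate fit, the part of neocortex content in these values was not tested. Endothelial markers had positive values in 10 of 10 with 2 that rose, and summed to 237 to 283 CPM in Treatment against 207 to 220 CPM in Model libraries. Of 10 astrocyte markers 5 had positive values and 1 rose, with a median of -0.0011 and sums of 5496 to 6466 CPM in Treatment and 5756 to 6220 CPM in Model libraries. All 10 markers of dentate granule neurons had negative values and 5 fell (median -0.36), with sums of 613 to 683 CPM in Treatment against 787 to 943 CPM in Model libraries. All 10 microglia markers had positive values and 0 passed (median 0.18), with sums of 395 to 447 CPM in Treatment against 353 to 404 CPM in Model libraries. The part of dentate granule and microglia content in the results was not tested.

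As a mean level, the 7 precursor genes stood at 0.12, 0.16, 0.11 and -0.03 in Treatment replicates 1 to 4, against -0.07, -0.11, -0.07 and 0.07 in Model replicates 1 to 4. Treatment replicate 4 lay below Model replicate 4, and the other 3 Treatment libraries lay above all Model libraries. Apart from Cspg5, the genes of this group had log2 fold changes between -0.05 and 0.21. Pdgfra had 69.5, 73.6, 60.2 and 67.9 CPM in Treatment libraries, against the narrow range of 57.7 to 59.3 CPM in Model libraries. The groups did not overlap, and the log2 fold change of 0.21 ± 0.08 did not pass (adjusted p = 0.148). Cspg5 and Pdgfra were the 2 of 30 genes without overlap, where 9.5% of all genes tested had none. Nkx2-2 (0.20 ± 0.12), Bcas1 (0.15 ± 0.07) and Cspg4 (0.13 ± 0.09) had positive values with overlapping groups, and Enpp6 and Gpr17 had 0.00 ± 0.13 and -0.05 ± 0.10. Pericyte and smooth muscle markers, which bear on Cspg4, had positive values in 10 of 10 with 0 that passed, and summed to 220 to 246 CPM in Treatment against 186 to 194 CPM in Model libraries. Leptomeningeal fibroblast markers, which bear on Pdgfra, had positive values in 7 of 12 with 0 that passed, and summed to 135 to 178 CPM in Treatment against 143 to 191 CPM in Model libraries. Their part in these values was not tested.

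**Figure D4:**
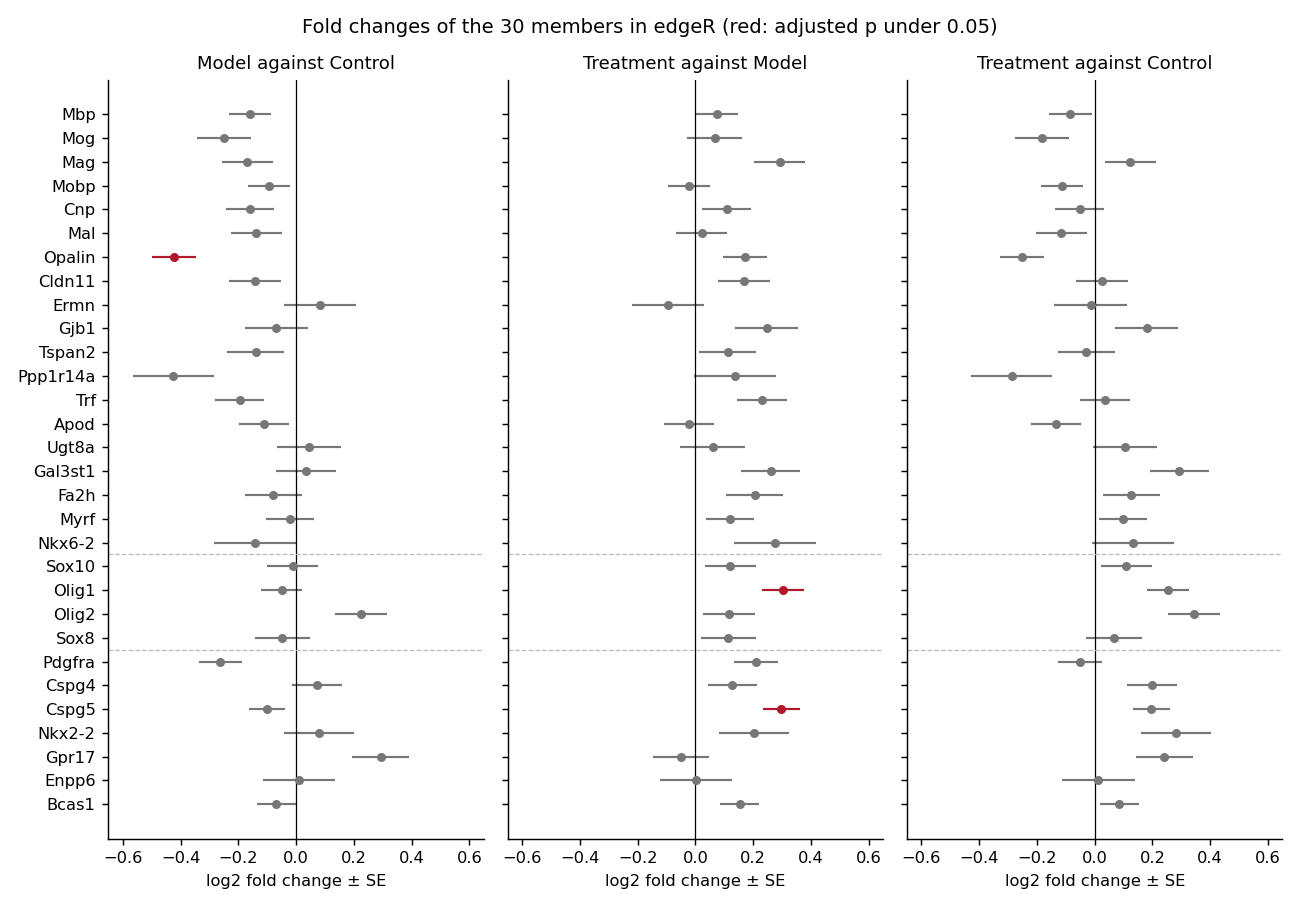
Log2 fold changes ± SE of the 30 genes in edgeR for Model against Control, Treatment against Model and Treatment against Control, with dashed lines between the mature, lineage factor and precursor groups and red for an adjusted p under 0.05. Opalin passes in the first comparison, Cspg5 and Olig1 in the second and 0 genes in the third.

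Among mature genes, Mag had the largest value, with 180, 212, 197 and 171 CPM in Treatment libraries and 144, 154, 149 and 174 CPM in Model libraries. Treatment replicate 4 and Model replicate 4 crossed, and the log2 fold change of 0.29 ± 0.09 did not pass (adjusted p = 0.0967), whereas DESeq2 and edgeR without the filter on low counts called it. Nkx6-2 (0.28 ± 0.14), Gal3st1 (0.26 ± 0.10), Gjb1 (0.25 ± 0.11), Trf (0.23 ± 0.09) and Fa2h (0.20 ± 0.10) followed. Opalin, the gene that fell in Model against Control, had 27.4, 28.0, 31.2 and 28.1 CPM in Treatment libraries, against 24.0 to 28.1 CPM in Model libraries. Its lowest Treatment value lay below its highest Model value, and the log2 fold change of 0.17 ± 0.08 did not pass (adjusted p = 0.248). The abundant structural genes had values near 0: Mbp had 0.07 ± 0.07, Mobp -0.02 ± 0.07, Mal 0.02 ± 0.09 and Cnp 0.11 ± 0.08. Ermn, Apod and Mobp were the 3 mature genes with negative values, of which Ermn at -0.10 ± 0.13 was the lowest. Mean levels of the 19 mature genes were 0.01, 0.14, 0.10 and -0.09 in Treatment replicates 1 to 4 and overlapped with those of the Model libraries. The median log2 fold change of these genes was 0.05 without Treatment replicates 2 and 3, in place of 0.12.

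**Figure D5:**
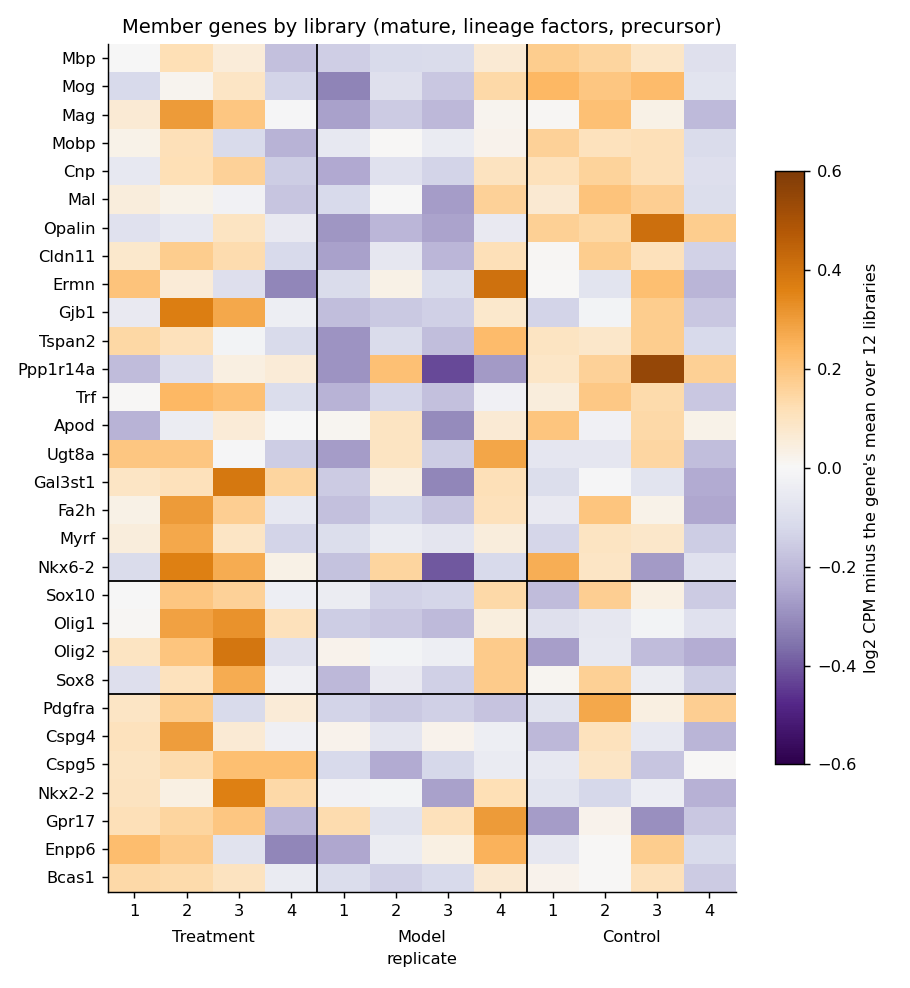
Log2 CPM of the 30 genes minus each gene's mean over the 12 libraries, with genes in rows (mature, lineage factors and precursor genes from top to bottom, split by lines) and replicates 1 to 4 of Treatment, Model and Control in columns. Columns differ as wholes within a group, as in Model replicate 4, whose mature mean of 0.08 contrasts with -0.19, -0.04 and -0.20 in the other Model libraries.

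Treatment was also set against Control, which shows stress and compound together against neither. Here 0 of the 30 genes passed, where 0.102% of all genes tested passed. An unadjusted p under 0.05 in edgeR was reached by 8 of the 30 genes and by 2581 of all 18600 genes tested. Of the 30, DESeq2 called 2, Olig1 and Olig2, and limma-voom 0. The mature genes had a median of -0.01 with 9 positive and 10 negative values, and the median turned to 0.06 without Control replicate 3 and to 0.08 without Treatment replicate 4. The lineage factors had positive values in 4 of 4 (median 0.18) and the precursor genes in 6 of 7 (median 0.20), beside 47.9% positive over all genes tested. The wider list of 30 other precursor and differentiation genes had 17 positive and 13 negative values (median 0.02).

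Olig2 had the largest value of the 30, with 38.9, 41.9, 47.8 and 34.2 CPM in Treatment libraries, against 30.4, 35.0, 31.9 and 31.0 CPM in Control libraries (0.34 ± 0.09, adjusted p = 0.125). Treatment replicate 4 and Control replicate 2 crossed. Olig1 had 131 to 162 CPM in Treatment libraries against 122, 124, 128 and 122 CPM in Control libraries, without overlap (0.25 ± 0.07, adjusted p = 0.142). Cspg5 likewise did not overlap, with 265 to 288 CPM in Treatment libraries against 238, 264, 220 and 248 CPM in Control libraries (0.20 ± 0.06, adjusted p = 0.178). Gal3st1, the sulfotransferase that makes sulfatide, and Nkx2-2 were the other genes higher without overlap, at 0.29 ± 0.10 and 0.28 ± 0.12. Opalin and Ppp1r14a were lower without overlap, at -0.25 ± 0.08 and -0.29 ± 0.14 (adjusted p = 0.163 and 0.377). These made 6 of 30 genes without overlap, where 7.24% of all genes tested had none. Without Treatment replicates 2 and 3, Olig2 had 0.19 and Olig1 0.13.

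The comparisons share libraries, so their values are set side by side for the genes that passed. Opalin had -0.42 in Model against Control, 0.17 in Treatment against Model and -0.25 in Treatment against Control. Cspg5 had -0.10, 0.30 and 0.20 in that order, and Olig1 -0.05, 0.30 and 0.25. In group means, Opalin stood at 28.7 ± 1.7 CPM in Treatment, 25.5 ± 1.9 CPM in Model and 34.2 ± 3.1 CPM in Control libraries (SD, n = 4 each). Cspg5 stood at 278 ± 12.0, 226 ± 12.3 and 242 ± 18.6 CPM in Treatment, Model and Control libraries, and Olig1 at 148 ± 15.0, 120 ± 9.4 and 124 ± 3.0 CPM.

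Olig1 and Olig2 lie close to each other on chromosome 16 and are often named together. Their proportion was formed after the values were seen, as a description. Olig1 CPM per Olig2 CPM was 3.36, 3.79, 3.39 and 4.10 in Treatment libraries, 3.16, 3.21, 3.18 and 3.24 in Model libraries and 4.02, 3.55, 4.03 and 3.94 in Control libraries. All 4 Model libraries lay below the other 8, while Treatment and Control libraries overlapped. A further ratio formed in this way, Cspg5 CPM per Cspg4 CPM, overlapped between all groups. It was 11.9, 10.6, 13.3 and 14.2 in Treatment, 10.8, 10.7, 10.8 and 11.9 in Model and 13.2, 11.9, 11.1 and 13.9 in Control libraries. How often other pairs of genes differ in this way was not examined. Over all 30 genes the CPM of the highest of the 12 libraries exceeded that of the lowest by 1.23-fold for Bcas1 and by 1.96-fold for Ppp1r14a, with the other genes between these.

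Further genes of the lineage, 30 of mature oligodendrocytes and 30 of precursors and differentiation, were taken from lists written down with earlier results of these data known. In Model against Control, 0 rose and 1 of the 30 mature genes fell, Aspa, the enzyme that splits N-acetylaspartate, and of the precursor genes 0 passed. Of the mature genes 24 had negative values (median -0.12), and of the precursor genes 15 (median -0.0041). Aspa had 15.3, 16.4, 15.6 and 16.6 CPM in Model libraries, against 23.2, 21.1, 23.5 and 21.3 CPM in Control libraries (-0.48 ± 0.08, adjusted p = 0.0169). It was also the 1 gene that fell in Treatment against Control, at 17.2, 15.6, 15.1 and 13.6 CPM in Treatment libraries (-0.53 ± 0.08, adjusted p = 0.024). All stressed libraries, with or without the compound, thus lay below all Control libraries in Aspa, and Treatment against Model gave -0.06 ± 0.08 (adjusted p = 0.769). The first Aspa call was lost without Control replicate 1 or 2 or Model replicate 2, 3 or 4 (adjusted p 0.0714, 0.0551, 0.0525, 0.0631 and 0.0611), and the second without Control replicate 1 or 3, Model replicate 3 or Treatment replicate 2 or 4 (0.0675, 0.116, 0.0538, 0.0507 and 0.0505). With choroid plexus content in the model, its log2 fold change was -0.45 in the first (adjusted p = 0.198) and -0.51 in the second (adjusted p = 0.336).

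In Treatment against Model, Pllp, a membrane protein of myelin, rose and Sema5a, a guidance molecule, fell. Pllp had 54.0, 67.2, 67.5 and 66.6 CPM in Treatment libraries, against 46.4, 52.7, 52.8 and 51.0 CPM in Model libraries (0.33 ± 0.08, adjusted p = 0.0385). Sema5a had 128, 135, 106 and 113 CPM in Treatment libraries, against 152, 171, 202 and 153 CPM in Model libraries (-0.49 ± 0.10, adjusted p = 0.0259). Neither pair of groups overlapped. Sema5a is itself 1 of the 10 markers of dentate granule neurons. The other 9 all had negative values and 4 fell (median -0.33), with sums of 507 to 556 CPM in Treatment against 635 to 742 CPM in Model libraries. The Pllp call was lost without Control replicate 1 or 4 (adjusted p 0.0538 and 0.0542), without any 1 of the Model libraries (0.0743 to 0.114) and without Treatment replicate 2, 3 or 4 (0.0991, 0.0635 and 0.0914). The Sema5a call was lost without Model replicate 2 or 3 or Treatment replicate 4 (0.0995, 0.0917 and 0.0664). Without both Treatment replicates 2 and 3, Pllp had an adjusted p of 0.222 and Sema5a of 0.0679. Enpp2, which choroid plexus makes in quantity, and Cdkn1c, a cell cycle inhibitor, completed the 5 genes of smallest p, at -1.098 ± 0.26 and -0.62 ± 0.16 in Model against Control (adjusted p = 0.0594 and 0.0775).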

How the data were processed

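Estimated counts per gene, not scaled by the authors, and deposited FPKM, scaled for gene length and library total by the authors, were taken from 1 table of 12 libraries. Per the labels the hippocampal RNA was poly(A) selected, its libraries were sequenced as read pairs, and all belong to 1 batch. Per the submitters' processing notes, reads were handled with Salmon 1.10.1, STAR 2.7.10a, Trim Galore 0.6.7, FastQC 0.12.1 and cutadapt 3.4, and the build was GRCm39. Annotation release and strand setting are not given in the sources used here. Of the nonzero estimated counts 28.8% are not whole within 1e-06.

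After rounding, the counts went into edgeR 4.0.16 (R 4.3.3). Of 78298 genes, 18600 were left by filterByExpr. With TMM factors, a single quasi-likelihood fit covered the 12 libraries and estimated each group's mean. The threshold was an adjusted p of 0.05, by Benjamini-Hochberg across the genes tested in a comparison. SE came from the log2 fold change and its test statistic. For mean levels of gene groups, log2 CPM had 2 as prior count. Depth and a biological coefficient of variation of 10.7% limit the precision. Changes put into simulated counts served to test the scripts, and it was checked that these were recovered. Alternatives were RLE scaling, DESeq2 1.42.0, limma-voom and FPKM in limma 3.58.1 (pseudocounts 0.1 and 1, at least 0.5 in 4 libraries, or no filter), other count filters, fewer libraries, a replicate block and marker scores as covariates. Tables and plots used Python 3.11.15 and matplotlib 3.10.9.

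The genes, the lists and the tests were chosen with earlier results of these data known. Named are all 30 genes and, of the other lineage genes, those that passed in a comparison, filled up to 5 by smallest p. Ratios of 2 genes were formed after their values were seen. Reads were not realigned, and splicing was not analysed here. Values of 1 gene of the marker lists are not reported here.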

Additional observations from a re-analysis of the deposited data

Results flagged for a closer look

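In groups of 4 libraries, 8 of 99 groups tested had a library far from the other 3 by Dixon's test at the 95% level, where chance flags about 1 in 20. Model replicate 4 was the high library in 5 of them. Its Mbp was 3578 CPM against 3092 to 3169 CPM in the other Model libraries, and its Gjb1 16.82 CPM against 14.01 to 14.45 CPM. Its Bcas1 was 187.2 CPM against 161.6 to 165.8 CPM, and its Olig1 133.9 CPM against 113.3 to 116.8 CPM. The mean level of the 4 lineage factors was 0.1363 in that library, against -0.1262 to -0.0933 in the other Model libraries. Control replicate 4 was low in Mog, with 62.95 CPM against 75.97 to 78.41 CPM. Control replicate 3 was high in Opalin, with 38.77 CPM against 32.25 to 32.95 CPM, and in Ppp1r14a, with 12.05 CPM against 8.787 to 9.28 CPM.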

How the results depend on the processing

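Over 25 alternatives and 90 pairs of a gene and a comparison, 2135 of 2250 log2 fold changes kept their sign, and the 115 that did not belong to 44 pairs whose reported size was at most 0.20. The Opalin call stood in 16 of 25 alternatives (adjusted p 3.24e-04 to 0.288), Cspg5 in 15 (7.37e-04 to 0.398) and Olig1 in 8 (0.00326 to 0.383), and 9 further values were called. Causes were not tested.

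In Model against Control, of the 30 genes 2 were called in DESeq2 and 2 without a count filter, and 0 with the choroid plexus covariate and in each of the 3 FPKM fits. Leaving out single libraries gave 0 to 1. Of the 60 other lineage genes, where 1 was called, DESeq2 gave 4, no filter 6, at least 1 CPM in 8 libraries 2, the 8 libraries alone 4, leaving out Treatment replicates 2 and 3 gave 3, the neocortex covariate 2, the choroid plexus covariate 0 and the FPKM fits 0, with 0 to 2 when single libraries were left out. Under the choroid plexus covariate the median of the mature genes was 0.0292 and that of the precursor genes 0.1084. The median of the precursor genes lay between -0.0793 and 0.0788 when single libraries were left out.

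In Treatment against Model, 1 of the 30 genes was called in the 8 libraries alone, and 0 without Treatment replicates 2 and 3, with the neocortex covariate and in the FPKM fits. Leaving out single libraries gave 0 to 2. Of the other lineage genes, where 2 were called, DESeq2 gave 5, no filter 4, the 8 libraries 1, leaving out both replicates 0, the neocortex covariate 0, FPKM with either pseudocount 1 and FPKM without a filter 0, with 0 to 4 when single libraries were left out.

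In Treatment against Control, DESeq2 called 2 and no filter 3 of the 30 genes (Gpr17, Olig1 and Olig2), and leaving out single libraries 0. Of the other lineage genes DESeq2 called 2, no filter 5, leaving out both replicates 2, and the 8 libraries, either covariate and the FPKM fits 0, with 0 to 2 when single libraries were left out. The median of the mature genes was 0.1155 under the choroid plexus covariate.

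Same-numbered libraries correlated between -0.04 and 0.11 in deviations from group means, no clear sign that replicate numbers pair the samples. Weak pairing was not excluded. Among the 4 libraries of the second group of a comparison, the one of the same number correlated best in 4 of 12 cases. A replicate block left 1 of the 30 genes called in Treatment against Model and 3 other lineage genes in Model against Control.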
